A study of Homo sapiens with 9 samples.

Results

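The genes described here are 38 interferon-stimulated genes, each read from the probe set that was brightest on average. They were chosen by name, with earlier results of these data known. Of the 38, 36 were measured among 18132 genes, and STAT2 and USP18 are not analysed here. Their RNA was read on Affymetrix PrimeView arrays in the breast cancer line MDA-MB231, plated at 70% confluency and treated for 24 h in fresh serum-containing medium. The PD325901 group had 3 cultures with 3 µM of that MEK inhibitor, the BB94 group had 2 cultures with 10 µM batimastat, a metalloproteinase inhibitor, and the control group had 4 cultures with 0.1% DMSO. No interferon is named among the treatments, and each inhibitor was tested at 1 dose and 1 time. The study's title ties reduced shedding of receptor kinases to kinase inhibitor resistance.

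Interferons are secreted proteins that bind receptors at the cell surface and activate JAK kinases and STAT transcription factors. A STAT pair joined by the DNA-binding protein IRF9 then enters the nucleus and switches on genes that carry an interferon-stimulated response element (ISRE), while STAT dimers act at gamma-activated sequences (GAS). The proteins made from these genes sense foreign nucleic acids, block virus entry and replication, attract T cells and modify other proteins, and many tumour cells keep some of them on without added interferon.

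All values are the authors' RMA log2 signals, differences are log2 differences between group means, and a call means a limma adjusted p under 0.05. The background level of an array was the highest of its 23 background control probe sets, a strict floor. It lay at 6.36 to 6.50 on PD325901 arrays, at 6.22 to 6.27 on BB94 arrays and at 6.02 to 6.28 on control arrays. Of the members, 26 were above it on all 9 arrays, 5 on some and 5 on none (IFI6, OAS3, BST2, RSAD2 and XAF1). Where every array of the dimmer group was at or below it, the fold is given as at least N-fold, with each dim array set to its background level or to its signal, whichever was higher. The median over all genes of each array was 7.77 to 7.86 in PD325901, 7.39 to 7.58 in BB94 and 7.5 to 7.61 in control. The ACTB 3′ signal minus its 5′ signal, a reading of RNA quality, was 3.50 to 4.15 in PD325901, 3.91 to 4.22 in BB94 and 2.96 to 3.89 in control, and its part in the results was not tested. All 4 markers of a mesenchymal breast line (VIM, CD44, AXL and SPARC) were above background on every array, whereas the 3 measured leukocyte markers and the 2 measured markers of plasmacytoid dendritic cells, a major interferon source, were above it on none. Of 4 luminal breast markers ESR1 and PGR were not above background, and GATA3 rose by 0.90 with PD325901 (SE 0.10, adjusted p = 5.6e-05). FOXA1, the brightest of the 4, was above background on every array. It differed by 0.47 with PD325901 (adjusted p = 0.0525, not called) and was higher in PD325901 than in BB94 (0.58, adjusted p = 0.0489). The summed level of the list was 10.99 to 11.2 in PD325901, 10.41 to 10.62 in BB94 and 10.25 to 10.92 in control as log2 of the linear sum. The part of these markers in the results was not tested.

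With PD325901, 19 of the 36 measured members were higher than in control, 3 were lower and 14 were not called. Among all genes, 22.8% were called higher and 12.3% lower in that comparison, against 52.8% and 8.33% of the members. The members' changes ran between −0.63 and 3.35 with a median of 0.36, beside a median of 0.08 over all genes. The genes that rose included the chemokines CXCL10 and CXCL11, the GTPases GBP2 and MX2, the transcription factor IRF9 and the RNA sensor IFIH1. IFI44, IFIT3 and HERC5 fell. In the bulk RNA, a change in every cell and a change in a fraction of the cells cannot be told apart.

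The split between higher and lower depends on scaling. Setting the gene median of every array to 0 (centring) moved the median change of all genes to −0.17, and 14 members were then called higher and 6 lower, with 13.0% of all genes higher and 28.0% lower. The members' median was then 0.11. Cyclic loess gave 18 members higher and 4 lower, with 3464 higher and 3206 lower among all genes, which had been 4142 and 2223. The 19 members called higher in the deposited scaling kept their sign in both, although with centring SAMD9, OAS2, IFI16, IRF7 and IFITM1 were no longer called.

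With BB94, no member was called higher, 3 were called lower (GBP2, IFIT1 and CXCL10) and 33 were not called by limma. At an unadjusted p under 0.05 there were 9 members, each of them lower. The share of all genes at that threshold was not counted, and the same holds for the gene lists below. Of all genes, 0.491% were called higher and 1.09% lower, so few genes of any kind were called; centring gave 125 higher and 151 lower, and cyclic loess 149 and 224, in place of 89 and 197. The members' median change was −0.17, beside −0.02 over all genes. Of the 36 changes 33 were below 0, and the share of all genes below 0 was not counted. Leaving out 1 array at a time gave between 0 and 4 called members, with 0 without BB94 replicate 2 and 1 without control replicate 3, control replicate 4 or any PD325901 array. The BB94 and PD325901 comparisons share the 4 control arrays, so their values are given side by side for each gene and not as independent results.

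Set directly against BB94, PD325901 had 19 members higher, 1 lower (IFI44) and 16 not called. The 19 include IFI6 (0.36, adjusted p = 0.0296), which was below background on all 9 arrays and kept that call under 8 of 15 alternatives (adjusted p 0.0232 to 0.806). The IFI6 call was lost without either BB94 array and without PD325901 replicate 1. The share of all genes was 21.0% higher and 10.2% lower. The members' median difference was 0.47, beside 0.11 over all genes. Centring the arrays gave 15 members higher and 4 lower, with 11.0% of all genes higher and 27.7% lower, and cyclic loess gave 18 and 2 members with 3041 genes higher and 2670 lower.

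**Figure D1:**
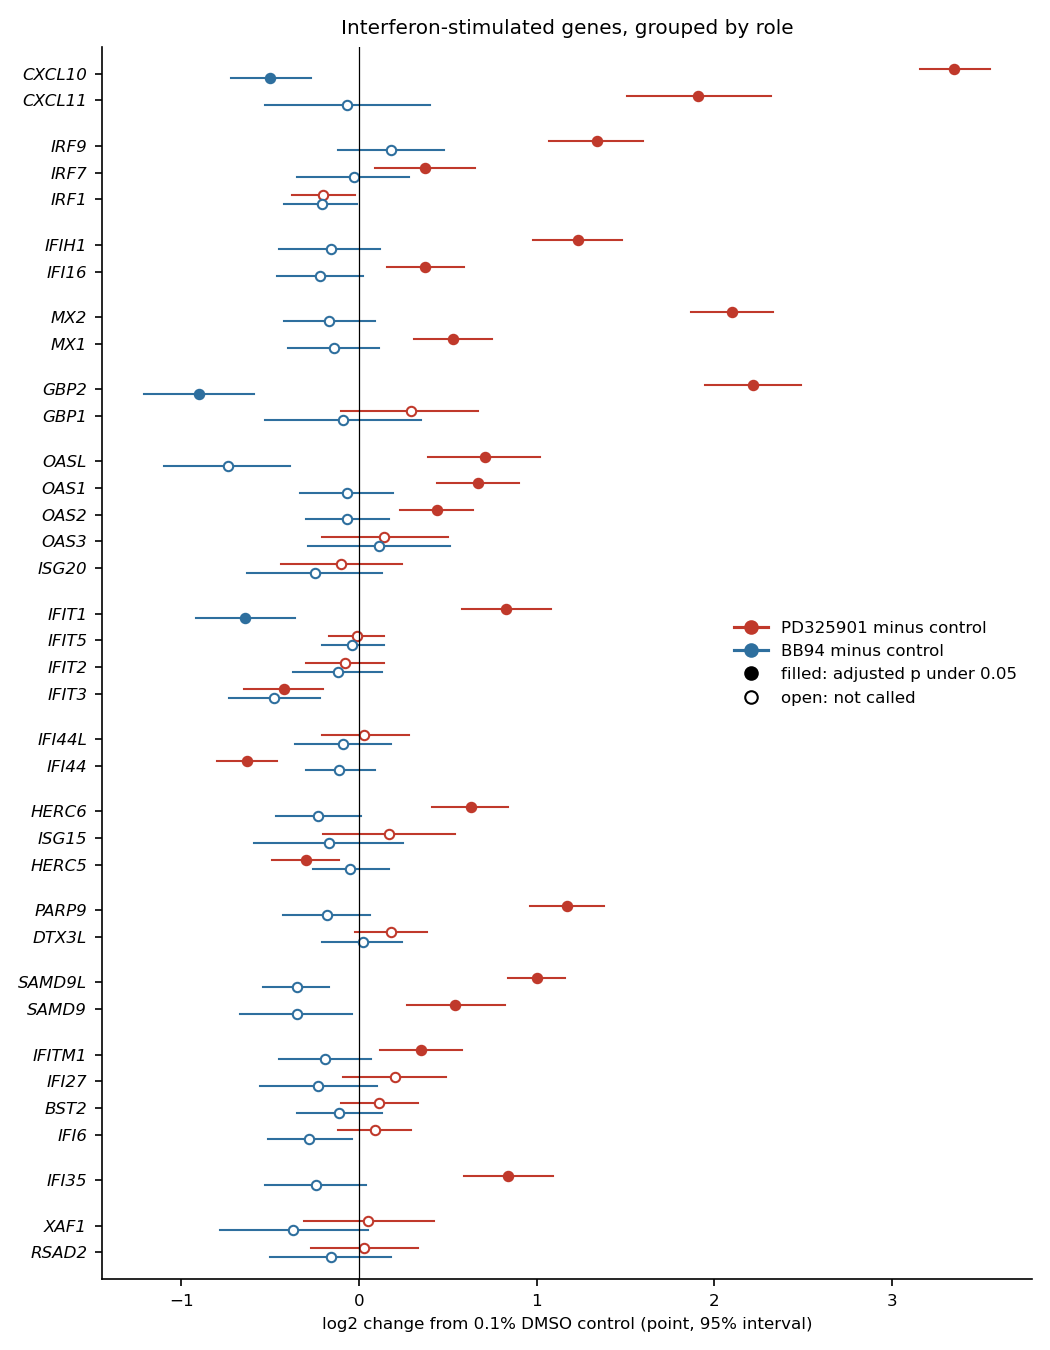
The plot of member changes gives, for each of the 36 measured genes grouped by role, the log2 change from control with its 95% interval, PD325901 (red) above BB94 (blue); filled points were called. CXCL10 at 3.35, GBP2 at 2.22 and MX2 at 2.10 lie farthest to the right, IFI44 at −0.63 lies lowest for PD325901, and 33 of the BB94 points lie left of 0.

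The promoters of members on either side of that split are shown so that genes that rose and genes that fell can be compared near their starts. Sequences are from RefSeq, build GRCh38.p14, and run 5′ to 3′ along the gene over the 250 bases before a listed transcription start. Capitals mark a match to the ISRE core GAAANNGAAA, or in IRF9 to the GAS core TTCNNNGAA, on either strand. CXCL10 (chr4:76023498-76023747, minus strand), IFIT1 (chr10:89392373-89392622, plus strand) and IRF9 (chr14:24161015-24161264, plus strand) rose with PD325901. IFIT3 (chr10:89327747-89327996, plus strand, the first of its listed starts) and HERC5 (chr4:88456869-88457118, plus strand) fell.
CXCL10: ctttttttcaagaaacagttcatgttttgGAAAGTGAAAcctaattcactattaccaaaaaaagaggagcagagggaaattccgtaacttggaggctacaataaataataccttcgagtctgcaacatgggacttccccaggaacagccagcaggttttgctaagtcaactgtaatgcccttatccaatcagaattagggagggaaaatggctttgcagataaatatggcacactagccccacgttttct
IFIT1: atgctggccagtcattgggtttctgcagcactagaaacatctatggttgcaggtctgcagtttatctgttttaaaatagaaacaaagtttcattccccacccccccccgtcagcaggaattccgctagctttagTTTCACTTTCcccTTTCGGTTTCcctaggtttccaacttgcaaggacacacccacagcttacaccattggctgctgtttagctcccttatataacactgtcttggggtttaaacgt
IRF9: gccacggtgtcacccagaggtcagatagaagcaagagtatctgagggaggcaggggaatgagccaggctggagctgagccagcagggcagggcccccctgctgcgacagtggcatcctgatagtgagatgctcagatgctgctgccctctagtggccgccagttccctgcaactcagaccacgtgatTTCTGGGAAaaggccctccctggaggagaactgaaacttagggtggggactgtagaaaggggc
IFIT3: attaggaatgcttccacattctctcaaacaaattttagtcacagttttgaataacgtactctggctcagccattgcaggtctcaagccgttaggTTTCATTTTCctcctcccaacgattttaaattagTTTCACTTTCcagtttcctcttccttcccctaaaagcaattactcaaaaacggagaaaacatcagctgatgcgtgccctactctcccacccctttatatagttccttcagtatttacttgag
HERC5: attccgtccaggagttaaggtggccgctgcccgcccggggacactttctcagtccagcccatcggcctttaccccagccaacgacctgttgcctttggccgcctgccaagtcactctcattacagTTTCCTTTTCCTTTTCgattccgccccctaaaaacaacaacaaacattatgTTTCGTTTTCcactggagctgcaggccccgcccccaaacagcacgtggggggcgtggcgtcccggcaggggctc

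A window from 250 bases before to 50 after the start was listed for 30 of the 36 measured members. MX2, GBP2, IFIT2, OASL, OAS2 and IRF7 had none in the table. Of these all but IFIT2 were called higher with PD325901, so the motif counts for members that rose are incomplete. Every member that fell had a window. The ISRE core was found on either strand in 21 of the 30 members (70.0%), against 1195 of the 27305 genes with a promoter (4.38%). It was present in 7 of 14 members that rose with PD325901, in 3 of 3 that fell and in 11 of 13 that were not called. The GAS core was found in 9 of 30 members (30%), against 2560 of 27305 genes (9.38%), and in 6 of 14 that rose, 0 of 3 that fell and 3 of 13 that were not called. An ISRE core match overlapped a GAS core match in BST2, IFI27, IFITM1 and MX1. Matches of the ISRE core overlapped each other in ISG15, IFIH1, HERC5 and BST2. A match describes letters in a window and not a bound site, and no test was made between these groups.

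**Figure D2:**
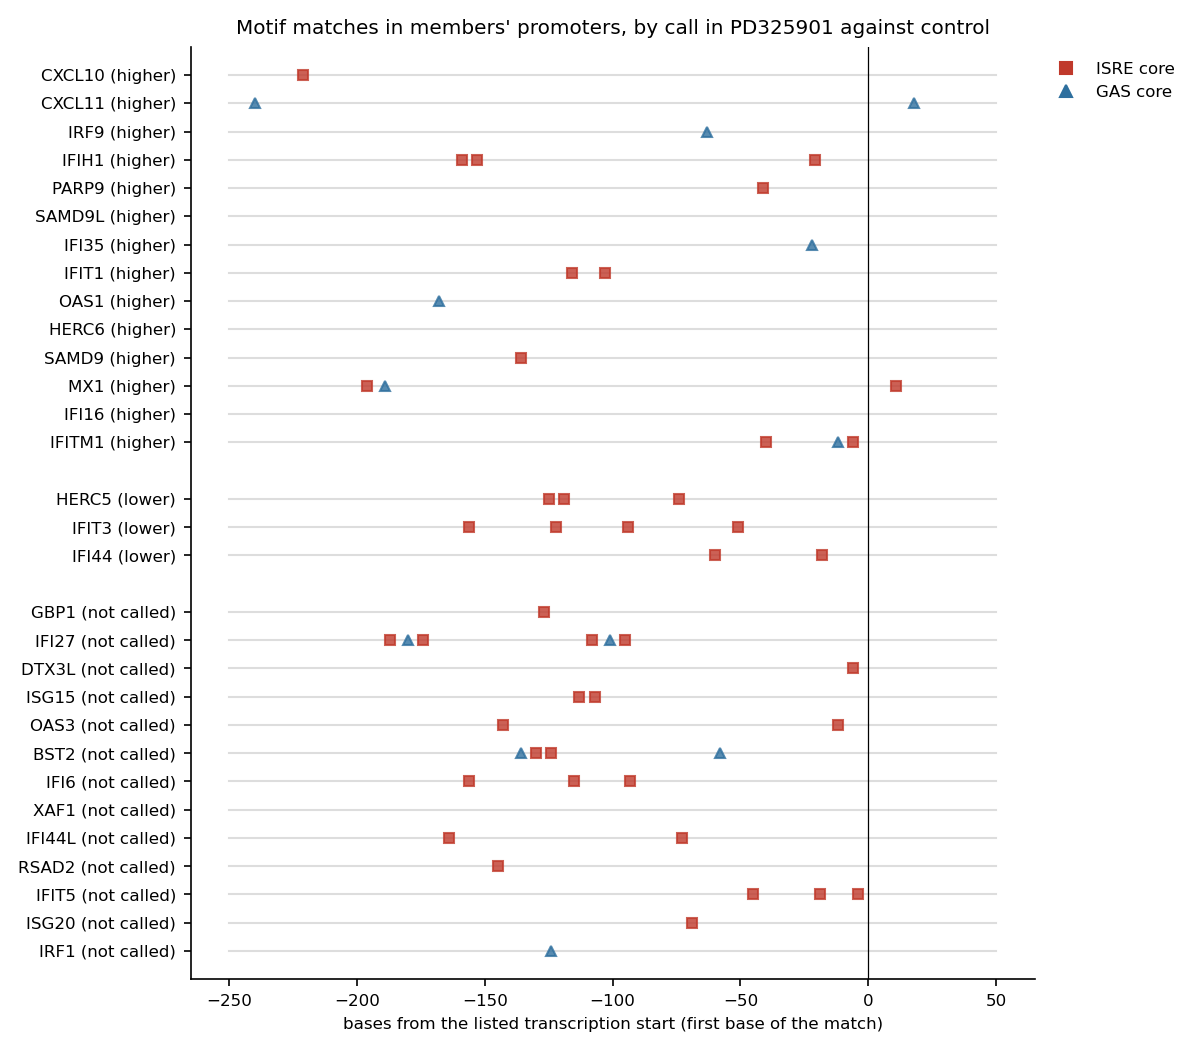
The map of motif matches places each ISRE core (red square) and GAS core (blue triangle) by its first base relative to the listed start, for the 30 members with a promoter window, grouped by their call in PD325901 against control; a gene with several listed starts shows the matches of each. The 3 genes that fell hold ISRE cores only, and SAMD9L, HERC6, IFI16 and XAF1 hold neither motif.

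The chemokines CXCL10 and CXCL11 bind the receptor CXCR3 and draw activated T cells, and both rose with PD325901. CXCL10 had signals of 8.31, 8.35 and 8.49 in PD325901 cultures, 4.59 and 4.47 in BB94 cultures and 5.12, 4.89, 4.99 and 5.1 in controls. The PD325901 values stood above the background level and above every other array, and all others were below background. The change was 3.35 (SE 0.09, adjusted p = 3.2e-09, n = 3 and 4), which is at least 4.51-fold, with group means of 8.38 ± 0.09 and 5.03 ± 0.11 (SD). With BB94 the fitted difference was −0.50 (adjusted p = 0.0378), but both groups lay below background, so no fold is given, and that call was kept under 5 of 18 alternative settings (adjusted p 0.0185 to 0.433). It was lost without control replicate 3 or 4, without either BB94 array and without any PD325901 array.

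CXCL11 had signals of 7.27, 6.77 and 7.04 in PD325901 cultures, 4.95 and 5.13 in BB94 cultures and 5.46, 5.31, 5.0 and 4.66 in controls. Only the PD325901 arrays were above background, and they did not overlap the others. The change was 1.91 (SE 0.18, adjusted p = 1.6e-05), at least 1.76-fold. The other 2 probe sets of CXCL11 were called higher too, but their mean signals of 4.93 and 3.58 lay under the background levels. With BB94 it was −0.07 (adjusted p = 0.967), with both groups below background. CXCL9, another ligand of that receptor and not among the members, was below background on every array. It differed by 0.05 with PD325901 and was not called.

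Among the transcription factors, IRF9, the DNA-binding subunit of the complex that acts at the ISRE, rose with PD325901. Its signals were 11.27, 11.20 and 11.21 in PD325901 cultures, 10.29 and 9.85 in BB94 cultures and 9.89, 9.86, 10.09 and 9.72 in controls. The PD325901 arrays were above all others, and BB94 and control overlapped. The change was 1.34 (SE 0.12, adjusted p = 9e-06), or 2.53-fold, and its other 3 probe sets were also called higher. With BB94 the difference was 0.18 (adjusted p = 0.753).

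IRF7, which drives the interferon-alpha genes, had signals of 7.97, 7.52 and 7.43 in PD325901 cultures, 7.21 and 7.27 in BB94 cultures and 7.21, 7.24, 7.41 and 7.23 in controls. PD325901 replicate 1 stood apart from the other PD325901 arrays, whose lower value lay just above control replicate 3. The change was 0.37 (SE 0.13, adjusted p = 0.0418), and the call was kept under 5 of 18 alternatives (adjusted p 0.0215 to 0.449). It was lost without control replicate 1, 2 or 4 and without PD325901 replicate 1 or 2. The IRF7 call was also lost with only PD325901 and control fitted, which is the same fit as without either BB94 array. IRF1, an early factor downstream of interferon gamma, had 8.66, 8.77 and 8.78 with PD325901, 8.78 and 8.68 with BB94 and 8.89, 8.92, 9.07 and 8.89 in controls. Both inhibitor groups lay below every control array, yet neither difference was called, at −0.20 (adjusted p = 0.0779) with PD325901 and −0.21 (adjusted p = 0.439) with BB94. With the arrays centred, the PD325901 difference of IRF1 was called lower, as it was with the mean filter and cyclic loess (adjusted p 0.00155 to 0.604 over all alternatives).

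The sensors among the members, IFIH1 and IFI16, rose with PD325901. IFIH1, a cytoplasmic helicase that recognises long double-stranded RNA, had signals of 9.39, 9.34 and 9.30 in PD325901 cultures, 8.08 and 7.83 in BB94 cultures and 8.34, 8.12, 8.12 and 7.88 in controls. The PD325901 arrays lay above all others. The change was 1.23 (SE 0.11, adjusted p = 1.2e-05), or 2.34-fold. A second probe set, with a mean signal of 3.34 under the background levels, was not called. With both probe sets averaged the change of IFIH1 was 0.71. The nuclear DNA sensor IFI16 rose by 0.37 (SE 0.10, adjusted p = 0.0119) with PD325901, averaging 12.28 ± 0.10 there and 11.90 ± 0.15 in control (SD, n = 3 and 4). Of its other 2 probe sets 1 was called higher and 1 was not. Without PD325901 replicate 2 the adjusted p of IFI16 was 0.0583 (0.00335 to 0.394 over 18 alternatives).

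The MX and GBP families are large GTPases that act on incoming viruses and on pathogen-containing vacuoles. MX1, MX2 and GBP2 rose with PD325901, and GBP1 was not called. MX2 had signals of 7.70, 7.62 and 7.66 in PD325901 cultures, 5.37 and 5.41 in BB94 cultures and 5.76, 5.54, 5.32 and 5.62 in controls. The PD325901 arrays alone were above background. The change was 2.10 (SE 0.10, adjusted p = 1.4e-07), at least 2.73-fold, and 1.34 with both of its probe sets averaged. The second probe set of MX2 had a mean signal of 4.72, under the background levels. MX1, its neighbour on chromosome 21, had 9.86, 9.87 and 9.87 with PD325901, 9.33 and 9.05 with BB94 and 9.20, 9.26, 9.51 and 9.39 in controls. Its PD325901 arrays were above all others too, with a change of 0.53 (SE 0.10, adjusted p = 0.00172), or 1.44-fold.

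GBP2 was called in both comparisons with control. Its signals were 10.74, 10.77 and 10.67 in PD325901 cultures, 7.75 and 7.47 in BB94 cultures and 8.43, 8.30, 8.49 and 8.82 in controls. The 3 groups did not overlap, with PD325901 highest and BB94 lowest. The change with PD325901 was 2.22 (SE 0.12, adjusted p = 3.4e-07), or 4.65-fold higher. With BB94 it was −0.90 (SE 0.14, adjusted p = 0.00942), or 1.87-fold lower, and its second probe set gave the same calls. The BB94 call was lost without BB94 replicate 2 (adjusted p = 0.2, and 0.00134 to 0.2 over 18 alternatives). Between the inhibitors the difference was 3.12 (adjusted p = 2.2e-07). GBP1, the adjacent gene on chromosome 1, differed by 0.29 (adjusted p = 0.257) with PD325901, and its controls spread from 7.52 to 8.37. Without control replicate 1 GBP1 was called higher (adjusted p = 0.0169, and 0.0026 to 0.999 over 18 alternatives).

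The OAS enzymes make short oligoadenylates that switch on a latent ribonuclease. OAS1 had signals of 9.87, 9.72 and 9.71 in PD325901 cultures, 9.19 and 8.88 in BB94 cultures and 8.99, 9.01, 9.25 and 9.15 in controls. PD325901 did not overlap the other groups, and the change was 0.67 (SE 0.10, adjusted p = 4.7e-04), or 1.59-fold. OAS2 rose by 0.44 (adjusted p = 0.00346), and OAS3, between them on chromosome 12, was below background on all arrays. All 3 other probe sets of OAS1 and all 4 of OAS2 were called higher. Those of OAS1 had mean signals of 7.38, 7.37 and 6.35, the last within the range of background levels. Those of OAS2 had 7.58, 6.01, 5.02 and 4.34, of which only the first lay above that range.

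OASL, a relative without the enzyme activity, had signals of 8.95, 9.27 and 9.30 in PD325901 cultures, 7.85 and 7.59 in BB94 cultures and 8.37, 8.20, 8.53 and 8.76 in controls. The 3 groups did not overlap. With PD325901 the change was 0.71 (SE 0.14, adjusted p = 0.00257). With BB94 the difference was −0.74 (SE 0.16, 95% interval −1.10 to −0.39), which narrowly missed the threshold (adjusted p = 0.0548) and was called under 6 of 18 alternatives (adjusted p 0.012 to 0.563), among them those without control replicate 1 or 2. ISG20, an exonuclease that degrades RNA, was not called in either comparison (−0.10 with PD325901 and −0.25 with BB94).

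The IFIT proteins bind foreign RNA and stop its translation. Of the 4 members, IFIT1 rose and IFIT3 fell with PD325901, and IFIT2 and IFIT5 were not called. IFIT1, which recognises RNA with an incomplete cap, had signals of 10.04, 9.96 and 10.07 in PD325901 cultures, 8.78 and 8.33 in BB94 cultures and 9.13, 9.09, 9.23 and 9.31 in controls. The PD325901 arrays were highest and the BB94 arrays lowest, with no overlap. The change was 0.83 (SE 0.11, adjusted p = 1.7e-04), or 1.78-fold, with PD325901. With BB94 it was −0.64 (SE 0.13, adjusted p = 0.0337), a call kept under 8 of 18 alternatives (adjusted p 0.0152 to 0.425). It was lost without control replicate 2, 3 or 4, without BB94 replicate 2 and without any PD325901 array.

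IFIT3, which binds and stabilises the IFIT1 protein, fell with PD325901. Its signals were 7.75, 7.95 and 7.87 in PD325901 cultures, 7.84 and 7.76 in BB94 cultures and 8.22, 8.09, 8.33 and 8.47 in controls. Both inhibitor groups lay below all controls and overlapped each other. The change was −0.42 (SE 0.10, adjusted p = 0.00722) with PD325901 and −0.48 (SE 0.11, adjusted p = 0.0823) with BB94. IFIT2 and IFIT5, in the same cluster on chromosome 10, differed by −0.08 and −0.01 with PD325901. Both were called lower once the arrays were centred.

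IFI44, a protein of uncertain function in the antiviral response, had signals of 10.60, 10.56 and 10.52 in PD325901 cultures, 11.15 and 11.01 in BB94 cultures and 11.11, 11.16, 11.26 and 11.24 in controls. The PD325901 arrays were below all others, and BB94 overlapped control. The change was −0.63 (SE 0.08, adjusted p = 9.2e-05), or 1.55-fold lower. Of its other 5 probe sets 2 were called lower, with mean signals of 10.78 and 9.31. The 3 not called had mean signals of 5.95, 5.94 and 6.30, below or within the range of background levels. With all probe sets of IFI44 averaged, these dim ones included, the change was −0.30. IFI44L, next to it on chromosome 1, differed by 0.03 (adjusted p = 0.854). A dimmer probe set of IFI44L had a mean signal of 6.05, within the range of background levels, and was not called with PD325901 against control. With every probe set fitted separately by limma, the dimmer one was lower with BB94 (−0.71, adjusted p = 0.0492). It was higher in PD325901 than in BB94 (0.63, adjusted p = 0.0136). In that fit the brighter probe set differed by −0.09 with BB94 (adjusted p = 0.898) and by 0.12 between the inhibitors (adjusted p = 0.567).

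**Figure D3:**
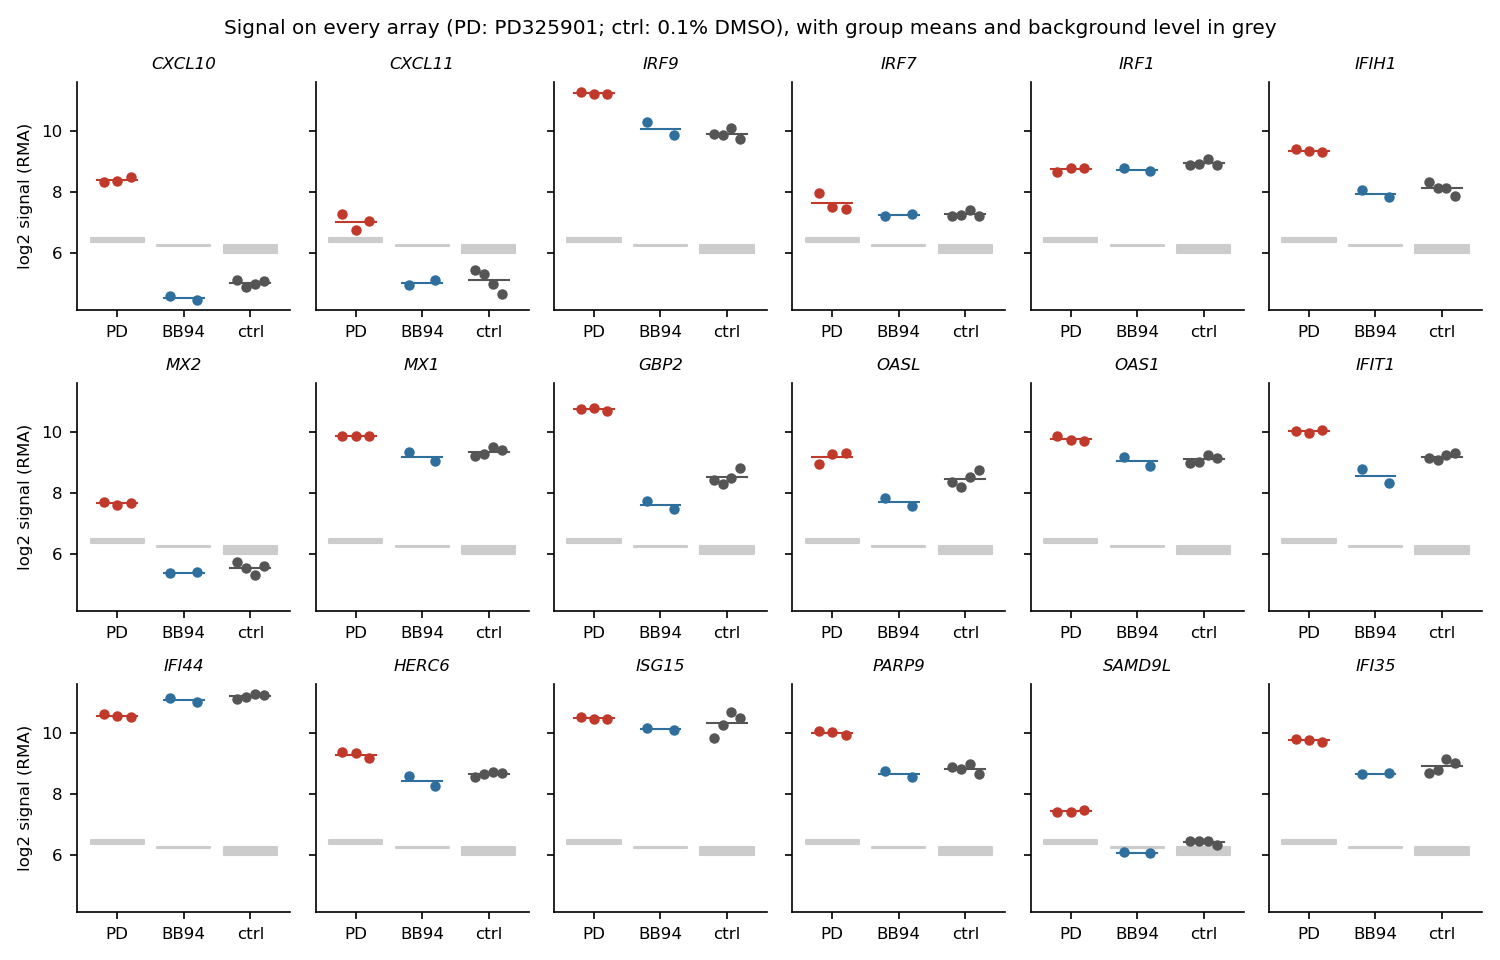
The plot of signals shows the log2 signal on each array for 18 of the members (PD325901 red, BB94 blue, control grey), with group means as lines and the range of the background level as a grey band. CXCL10, CXCL11 and MX2 lie above background in PD325901 cultures alone, GBP2, OASL and IFIT1 separate into 3 levels, and IFI44 is lowest in PD325901.

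ISG15 is a ubiquitin-like protein that is attached to other proteins, and its gene was not called in any comparison. It had signals of 10.53, 10.46 and 10.45 in PD325901 cultures, 10.17 and 10.10 in BB94 cultures and 9.83, 10.24, 10.68 and 10.47 in controls. The controls covered the whole range of both inhibitor groups. The differences were 0.17 (SE 0.17, 95% interval −0.20 to 0.54, adjusted p = 0.492) with PD325901 and −0.17 (adjusted p = 0.869) with BB94. Against control replicates 1 and 2 alone ISG15 was called higher with PD325901 (adjusted p = 0.0199, and 0.0199 to 0.932 over 18 alternatives). Against replicates 3 and 4 alone it was called lower with BB94 (adjusted p = 0.0291, and 0.0291 to 1 over 18 alternatives).

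The ISG15 ligases HERC5 and HERC6, side by side on chromosome 4, changed in opposite directions with PD325901. HERC5, the main human ligase, had 8.17, 8.31 and 8.33 in PD325901 cultures, 8.58 and 8.47 in BB94 cultures and 8.51, 8.66, 8.48 and 8.65 in controls. The PD325901 arrays were lowest, and the change was −0.30 (SE 0.08, adjusted p = 0.0169). HERC6, which is the main ligase in mouse, had 9.36, 9.33 and 9.17 in PD325901 cultures, 8.58 and 8.27 in BB94 cultures and 8.55, 8.65, 8.73 and 8.70 in controls. Here the PD325901 arrays were highest, and the change was 0.63 (SE 0.10, adjusted p = 4.5e-04), or 1.55-fold. The HERC5 call was lost without control replicate 2 (adjusted p = 0.0525) and without PD325901 replicate 1 (adjusted p = 0.086), within a range of 0.00114 to 0.086 over 18 alternatives.

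PARP9 and DTX3L form a complex that modifies proteins with ubiquitin and ADP-ribose, and their genes face away from each other on chromosome 3. A listed start of PARP9 lies 38 bases from that of DTX3L, so their promoter windows share 137 bases and an ISRE core. The stretch around it is printed on the plus strand (chr3:122564322-122564351), with the core in capitals.
PARP9 and DTX3L: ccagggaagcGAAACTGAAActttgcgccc

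PARP9 had signals of 10.05, 10.03 and 9.92 in PD325901 cultures, 8.74 and 8.56 in BB94 cultures and 8.87, 8.83, 8.98 and 8.66 in controls. The PD325901 arrays were well above the others, which overlapped. The change was 1.17 (SE 0.10, adjusted p = 5.1e-06), or 2.25-fold. Both other probe sets were called higher, but their mean signals of 5.86 and 5.02 lay under the background levels. DTX3L had 11.91, 11.95 and 12.00 in PD325901 cultures, 11.81 and 11.77 in BB94 cultures and 11.95, 11.83, 11.64 and 11.67 in controls. PD325901 and control overlapped, and the difference of 0.18 (95% interval −0.02 to 0.38, adjusted p = 0.162) was not called. Without control replicate 1 DTX3L was called higher (adjusted p = 0.037, and 0.0109 to 0.957 over 18 alternatives).

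SAMD9 and SAMD9L are adjacent paralogues on chromosome 7 that restrict poxviruses, and both rose with PD325901. SAMD9L had signals of 7.41, 7.40 and 7.47 in PD325901 cultures, 6.09 and 6.07 in BB94 cultures and 6.47, 6.45, 6.47 and 6.33 in controls. The groups did not overlap, and the BB94 arrays were below background. The change was 1.00 (SE 0.07, adjusted p = 2.6e-06), or 2.00-fold, with PD325901 and −0.35 (adjusted p = 0.079) with BB94. SAMD9 rose by 0.54 (SE 0.12, adjusted p = 0.00569), averaging 8.79 ± 0.01 with PD325901 and 8.24 ± 0.21 in control (SD).

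IFI35, which binds the signalling protein NMI, had signals of 9.79, 9.78 and 9.69 in PD325901 cultures, 8.65 and 8.68 in BB94 cultures and 8.69, 8.78, 9.15 and 9.01 in controls. The PD325901 arrays were above all others and the BB94 arrays just below the lowest control. The change was 0.84 (SE 0.11, adjusted p = 1.6e-04), or 1.79-fold. Of the membrane proteins, IFITM1, which hinders virus fusion, rose by 0.35 (adjusted p = 0.021), a call kept under 13 of 18 alternatives (adjusted p 0.00262 to 0.471) and lost without control replicate 2 or without PD325901 replicate 1 or 2. IFI27 differed by 0.20 (adjusted p = 0.299), and IFI6 and BST2, the virus-tethering protein, were below background. The antiviral enzyme RSAD2 and the apoptosis regulator XAF1 were also below background on all arrays, so no fold is given for them.

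**Figure D4:**
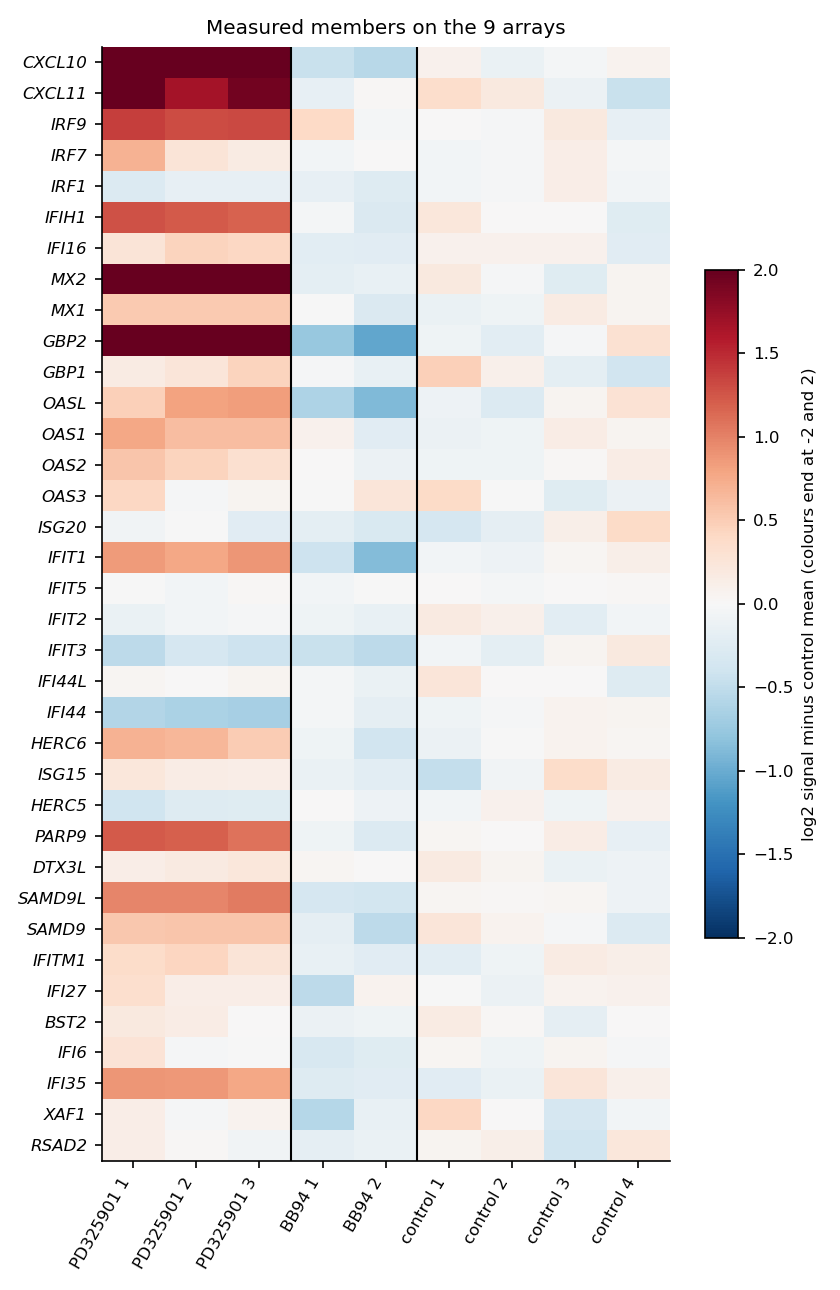
The heat map shows each of the 36 measured members on the 9 arrays as log2 signal minus the control mean, with red higher and blue lower and colours ending at −2 and 2. The 3 PD325901 columns are red for the 19 members called higher, deepest in CXCL10, CXCL11, MX2 and GBP2, and GBP1, ISG15 and ISG20 are red in some of the 4 control columns and blue in others.

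Genes upstream and alongside the members were taken from named lists. Over all genes, 22.8% were called higher and 12.3% lower with PD325901, and 0.491% and 1.09% with BB94. The median change over all genes was 0.08 with PD325901 and −0.02 with BB94. Of 5 measured interferon genes limma called none in either comparison, none had an unadjusted p under 0.05, and all 5 were below background on every array. IFNB1, which encodes interferon beta, had 3.49, 3.58 and 3.50 in PD325901 cultures, 3.29 and 3.61 in BB94 cultures and 3.81, 3.33, 3.46 and 3.49 in controls. The groups overlapped, and the interferon genes' median change was 0.00 with PD325901 and −0.05 with BB94.

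Of 6 receptor chains, 3 rose and 2 fell with PD325901, with a median of 0.26. Among all genes 22.8% were called higher and 12.3% lower, with a median of 0.08. IL10RB, the chain shared by the lambda interferon and interleukin-10 receptors, rose by 1.07 (adjusted p = 7.5e-06). Its partner IFNLR1 fell by 0.68 (adjusted p = 0.00237), and IFNGR2, a chain of the gamma interferon receptor, fell by 0.92 (adjusted p = 3.3e-05). IFNGR1, the other chain of the gamma receptor, rose by 0.61 (adjusted p = 0.00522). IFNAR1, of the receptor for alpha and beta interferons, differed by 0.15 (adjusted p = 0.34) and was not called. IFNAR2, the other chain of that receptor, rose by 0.36 (adjusted p = 0.024). With BB94 limma called none of the 6 (2 at an unadjusted p under 0.05), although IFNLR1 was called higher without control replicate 1 (adjusted p = 0.049, and 0.00827 to 0.686 over 18 alternatives).

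Of 4 measured JAK and STAT genes, 2 rose with PD325901, beside 22.8% of all genes. STAT3, which carries signals of the interleukin-6 family, rose by 0.72 (adjusted p = 0.00125). The kinase JAK1 rose by 0.22 (adjusted p = 0.0349), but by −0.03 once the arrays were centred. The JAK1 call was kept under 8 of 18 alternatives (adjusted p 0.0171 to 0.797) and lost without control replicate 2 or 3 or any PD325901 array. The kinase TYK2 differed by 0.21 (adjusted p = 0.181). Of 7 measured negative regulators, which include the member ISG15, 1 rose: PTPN2, a phosphatase that acts on JAK and STAT proteins, by 0.61 (adjusted p = 1.8e-04). With all of its probe sets averaged PTPN2 changed by 0.16 (adjusted p = 0.134, the highest over 18 alternatives). Of 5 other interferon regulatory factors limma called none in either comparison, with 3 at an unadjusted p under 0.05 with PD325901 and none with BB94.

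Of 10 nucleic acid sensors and adaptors, 5 rose and 1 fell with PD325901, with a median of 0.32. The shares of all genes were 22.8% and 12.3%, with a median of 0.08. DHX58, a relative of IFIH1 that tunes its signalling, had 7.09, 6.89 and 6.99 in PD325901 cultures, 5.89 and 4.95 in BB94 cultures and 5.45, 5.41, 5.63 and 5.66 in controls. Only the PD325901 arrays were above background, and the change was 1.45 (adjusted p = 1.1e-04), at least 1.72-fold. With all probe sets of DHX58 averaged the change was 0.50. IKBKE, a kinase that activates interferon regulatory factors, rose by 1.15 (adjusted p = 1.8e-05). The DNA sensor CGAS fell by 1.33 (adjusted p = 3.3e-07), at least 2.2-fold, and was below background on the 3 PD325901 arrays. With BB94 limma called none of the 10, with 6 at an unadjusted p under 0.05 (1 higher and 5 lower), and their median was −0.22.

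Of 41 measured further interferon-induced genes, 18 rose and 2 fell with PD325901, with a median of 0.32. Among all genes 22.8% were called higher and 12.3% lower, with a median of 0.08. TRANK1 rose by 1.43 (adjusted p = 7.1e-05), at least 2.24-fold, and APOL6 by 1.05 (adjusted p = 1.3e-05), or by 0.33 with all of its probe sets averaged. TRIM22, an antiviral ubiquitin ligase, was called higher by 1.48 (adjusted p = 4e-04) although it was below background on every array. Its change was 0.41 with all probe sets averaged. IDO1 was called higher too (0.64, adjusted p = 6.1e-04) with every array below background. EPSTI1 was the 1 gene of these lists, the member ISG15 included, that was called with BB94. It had 6.79, 7.09 and 7.14 in PD325901 cultures, 6.94 and 6.83 in BB94 cultures and 6.36, 6.12, 5.83 and 5.70 in controls, of which 2 were above background. Both inhibitor groups lay above the controls, by 1.01 with PD325901 (adjusted p = 4.1e-04) and by 0.88 with BB94 (adjusted p = 0.0337). The BB94 call of EPSTI1 was kept under 8 of 18 alternatives (adjusted p 0.00401 to 0.266). It was lost without control replicate 2, 3 or 4, without either BB94 array and without PD325901 replicate 2 or 3.

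**Figure D5:**
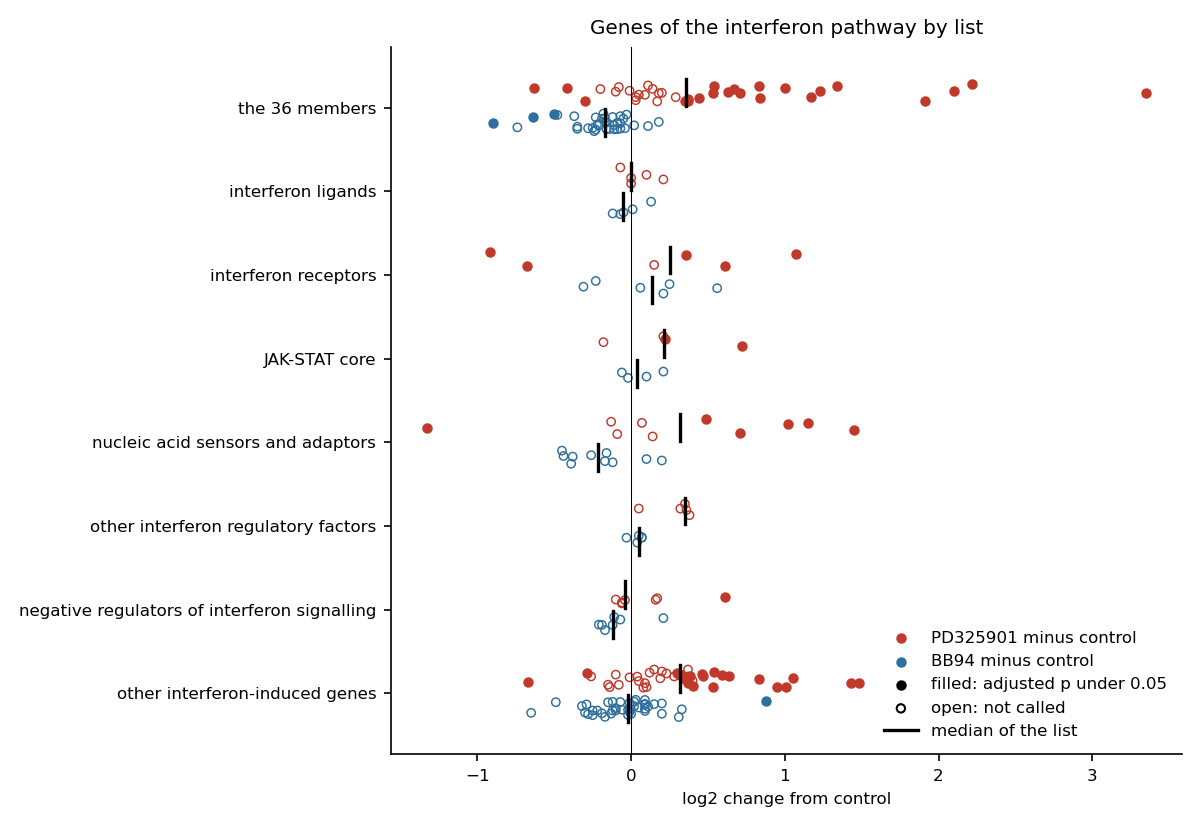
The plot of pathway lists shows the log2 change from control of every measured gene, PD325901 (red) above BB94 (blue), with filled points called and bars at the list medians. The 5 interferon genes stay near 0, the receptors and sensors spread to both sides of 0 with PD325901, and the median of the 36 members lies at 0.36 for PD325901 and at −0.17 for BB94.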

How the data were processed

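The deposited values are log2 signals that the authors made with the RMA routine of the R package affy, as the series design text states. That routine subtracts background, quantile-normalizes and summarises probes, and nothing was rescaled here. Of 49395 probe sets 102 controls were left out, 44988 had 1 gene symbol and 1832 had several. Each gene took its probe set with the highest mean. The test was limma 3.58.1 under R 4.3.3 (lmFit and eBayes, 1 coefficient per group, all 9 arrays, 6 residual degrees of freedom, two-sided), with Benjamini-Hochberg adjustment over 18132 genes; the procedure was tested on simulated data. Arrays carry no read depth, and their number limits the precision. The labels call the cultures biological replicates and name no batch.

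Every member was named; array values were given for up to 14 called members changed by at least 0.5, for a preset group and for members singled out after their values were seen (IFIT3, HERC5 and DTX3L). From each pathway list the 3 largest called changes were named. IFNB1, IFNAR1, JAK1 and TYK2 were named besides, and CXCL9, IFNAR2 and IFNGR1 after their values were seen. The members and lists were chosen with earlier results of these data known. Alternatives covered the probe set rule, a mean filter of 5, centring, cyclic loess, the eBayes options, the groups fitted, the replicate block and the arrays left out. For PD325901 against control, leaving out either BB94 array repeats the fit of only the groups compared, so those alternatives are not separate. Fitting every probe set separately was added after seeing the data.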

Additional observations from a re-analysis of the deposited data

Results flagged for a closer look

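Within the 4 controls, 4 of the 36 members had an array whose gap to its nearest neighbour was over the Dixon limit, where chance gives about 1 in 20. IFI16 was 11.68 in control replicate 4, with the others at 11.98. IRF1 was 9.07 in control replicate 3, with the others at 8.89 to 8.92, and IRF7 was 7.41 there, with the others at 7.21 to 7.24. SAMD9L was 6.33 in control replicate 4, with the others at 6.45 to 6.47.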

How the results depend on the processing

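Of the 22 members called with PD325901 against control, 16 were called under every alternative and 0 changed sign, and for PD325901 against BB94 this was so for 16 of 20. None of the 3 BB94 calls was kept throughout. Among members not called, 12 changed sign under some alternative with PD325901, 15 with BB94 and 10 between the inhibitors. For PD325901 against control the members' median of 0.36 was 0.31 with probe sets averaged, 0.11 with arrays centred and 0.23 with cyclic loess, and between the inhibitors the 0.47 was 0.57 with the mean filter, 0.14 centred and 0.30 with cyclic loess. For BB94 against control the median was −0.10 centred. With arrays centred, IFIT5 (−0.30) and IRF1 (−0.32) were called lower in PD325901 than in BB94, the reverse of their uncalled differences. The count of members called with BB94 (3) was 5 with the mean filter, 0 with only the groups compared, 1 with control replicates 1 and 2 alone and 8 with replicates 3 and 4 alone. Over all genes the BB94 count (286) was 140 with only the groups compared and 1633 with control replicates 3 and 4 alone. Leaving out 1 array at a time gave 0 to 4 members and 62 to 367 genes for BB94, lowest in each case without BB94 replicate 2, and member medians of 0.44 to 0.54 between the inhibitors. The highest correlation between the deviations of same-numbered arrays was 0.1216. Deviations were taken from the group means, so those of the 2 BB94 arrays mirror each other, and this check cannot exclude a pairing. The replicate block gave 1 member and 161 genes for BB94 and 20 members for PD325901 against control. The cause of these shifts was not tested. Signal over background limits CXCL10, CXCL11 and MX2 to bounds.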
